A study of Mus musculus with 40 samples.

Results

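Early T-cell precursors (ETP), the first cells of the mouse thymus to enter the T lineage, were compared 24 h after mice received a Notch1 blocking antibody or a control antibody. The comparison held 6 of the 40 libraries of the study, 3 of antibody-treated ETP (AntiNRR) and 3 of control ETP (IgG), and its members were found by their titles. The mice were C57BL/6, with no transgene or deletion named for them. They were injected intraperitoneally with 10 mg/kg of an anti-NRR Notch1 antibody, or of an isotype IgG, both from Genentech. ETP were sorted as Dapi-CD44+cKit+CD25-Lineage- cells, and RNA was sequenced after ribosomal RNA removal with a low-input kit. The IgG ETP libraries held 9456818 to 14385245 counts and the AntiNRR ETP libraries 13544135 to 16283070. How many mice received each antibody, and whether replicates were separate animals, is not given, so p-values measure the spread between these libraries, which may be in part technical. Sets of 6 further libraries were used for comparison. The first held 3 IgG and 3 AntiNRR libraries of double-negative 3 (DN3) cells, a later thymocyte stage, from mice treated in the same way. The second held ETP of MxCreZmiz1f/f mice (DeltaMxCre, 3 libraries) and of control MxCre mice (3 libraries), both sorted 8 weeks after pI-pC, which induces Mx1-driven Cre. Zmiz1 encodes a co-activator of Notch1, and Mx1 drives Cre in blood-forming and many other cells.

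Notch1 is a surface receptor that is cut when a neighbouring cell presents a Delta-like ligand. Its negative regulatory region (NRR) hides the cleavage site until the ligand pulls on it, and antibodies to that region hold the receptor closed. The released intracellular part joins Rbpj and Maml proteins on DNA and switches on genes such as Hes1, Dtx1, Myc, Il2ra and Ptcra. In the thymus this signal directs progenitors to the T lineage, and ETP can still form myeloid, dendritic, mast and natural killer cells. The comparison asks which transcripts of ETP depend on Notch1 signalling over the day after injection.

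Transcripts of the receptor itself and of several of its best-known targets were lower in each AntiNRR library than in each IgG library, among them Notch1, Notch3, Dtx1, Il2ra, Ptcra and Myc. Cpa3, which encodes mast cell carboxypeptidase, and Il4ra, the interleukin 4 receptor alpha chain, were higher in each AntiNRR library. No gene passed the main test: of 12568 genes tested with edgeR's quasi-likelihood test, 0 had a Benjamini-Hochberg adjusted p under 0.05 in either direction (0% of genes), and the lowest adjusted p was 0.0816, for Cpa3 and Il4ra. At an unadjusted p under 0.05, 328 genes were higher (2.61% of those tested) and 359 were lower (2.86%). DESeq2's Wald test, run as an alternative, called 7 genes higher (0.0557%) and 21 lower (0.167%). Of these 28 genes, 9 were gene models or had a mean under 5 CPM over the ETP libraries compared. The groups did not overlap in any of the 28, but a low p between groups of 3 tends to bring such separation. It therefore adds no support to the calls. Over all genes tested, 737 were higher in every AntiNRR library than in every IgG library (5.86%) and 747 were lower (5.94%). In simulated counts, the same edgeR test called 34 of 100 genes changed by 1 on the log2 scale and 80 of 100 changed by 2. Those counts were drawn gene by gene with the spread fitted to these libraries, and the changed genes had a mean of at least 5 CPM. Differences shared by many genes of a library were not simulated, so these rates may not hold for the real libraries. Levels below are CPM, in which the count of a gene is divided by the TMM-scaled total of its library and put on the usual fixed scale, and log2 fold changes are AntiNRR minus IgG.

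**Figure D1:**
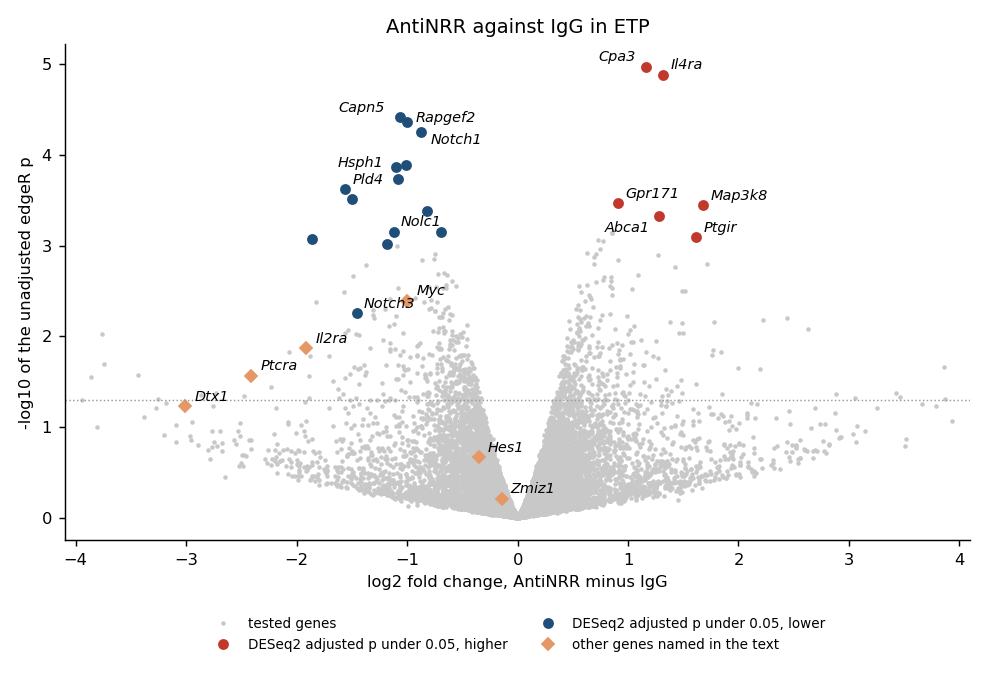
Log2 fold change (AntiNRR minus IgG, x axis) and −log10 of the unadjusted edgeR p (y axis) for the genes tested in ETP, with the genes called by DESeq2 in red (higher) and blue (lower) and other named genes as diamonds. The dotted line marks an unadjusted p of 0.05, and 23 genes beyond 4 on the log2 scale, 8 of them called by DESeq2, lie outside the axis. Cpa3 and Il4ra have the lowest p among higher genes and Capn5, Rapgef2 and Notch1 among lower genes.

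The libraries differed from each other beyond counting error. Between 67.5% and 79.0% of the 12578 to 12924 genes with enough counts in a pair differed past sampling noise between replicates of a group. Libraries were scaled by total count alone there, so the share also takes in scaling differences between libraries. The correlation of log2(CPM + 1) across genes was between 0.922 and 0.956 among the 6 ETP libraries, against 0.953 to 0.973 among the 6 antibody DN3 libraries. The highest of the ETP values joined IgG 3 with AntiNRR 2. Those libraries also had the highest levels of genes of early progenitors. Cd34, a surface protein of stem and progenitor cells, stood at 41.1, 76.1 and 213 CPM in IgG 1 to 3 and at 68.2, 363 and 101 CPM in AntiNRR 1 to 3. Flt3, a cytokine receptor of the earliest thymic immigrants, stood at 3.10, 24.0 and 53.1 CPM in IgG and at 12.5, 139.7 and 26.3 CPM in AntiNRR. The groups overlapped for both genes. Ribosomal RNA precursor (Rn45s) took 8.92% to 13.79% of counts in IgG and 7.41% to 11.03% in AntiNRR, and the nuclear RNA Malat1 took 0.43% to 0.79% and 0.59% to 1.03%. The part of these differences in the results below was not tested.

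The sorted stage was checked by its markers, scaled together with the DN3 libraries. The labels give the DN3 sort a CD44+ and CD25- phenotype like that of ETP, so the stage was taken from the titles. Cd44, which the ETP gate selects, was at 49.4 to 175 CPM over the ETP libraries and at 2.20 to 3.88 CPM over the DN3 libraries. Mpo, a myeloperoxidase gene active in multipotent progenitors, was at 41.7 to 461 CPM in ETP and was counted at 0 in each DN3 library. The transcript for CD25, Il2ra, was abundant in IgG ETP and ranged from 1938 to 2650 CPM against 3207 to 3816 CPM in IgG DN3, although the sort gate was CD25-. Ptcra, whose product pairs with the beta chain in the pre-T-cell receptor, was at 26.7 to 43.0 CPM in IgG ETP and at 205.7 to 228 CPM in IgG DN3. Rag1, a recombinase gene of later stages, was at 460 to 837.5 CPM in IgG ETP and at 4615 to 4946 CPM in IgG DN3. In bulk RNA, fewer cells of a type in the sorted sample and less RNA per cell cannot be told apart. That limit touches the genes of later stages below.

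The receptors come first. Notch1 (chromosome 2, 26457903 to 26516663, minus strand, GRCm38) stood at 1652, 1567 and 1383 CPM in IgG 1 to 3 and at 909, 713 and 895.5 CPM in AntiNRR 1 to 3. Every AntiNRR library was below every IgG library, and the group means were 1534 ± 137 and 839 ± 109 CPM (SD, n = 3 libraries each). The log2 fold change was -0.87 with a standard error of 0.158, a 1.83-fold lower level (edgeR adjusted p = 0.139). DESeq2 gave an adjusted p of 2.32e-05, and over the 15 alternatives the adjusted p for Notch1 ran from 2.32e-05 to 0.919, under 0.05 in 4. Notch3, a related receptor that Notch1 signalling induces in thymocytes, stood at 281, 261 and 141 CPM in IgG and at 82.1, 44.0 and 122 CPM in AntiNRR (log2 fold change -1.46, standard error 0.390). IgG 3 and AntiNRR 3 were close to each other, yet the groups did not overlap. Its adjusted p was 0.7 in edgeR and from 0.00471 (DESeq2) to 1 over the alternatives. Notch2 overlapped between the groups, with a log2 fold change of -0.07.

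Among 22 genes of Notch receptors and receptor processing, 1 was higher and 2 were lower at an unadjusted p under 0.05, against 2.61% and 2.86% of all genes, and the median log2 fold change was 0.08, against 0.01 over all genes tested. The higher gene was Lfng, a glycosyltransferase that adjusts how Notch receptors respond to their ligands. It stood at 68.5, 71.1 and 58.8 CPM in IgG and at 122, 78.4 and 113 CPM in AntiNRR (log2 fold change 0.66, unadjusted p = 0.00613 and adjusted p = 0.7 in edgeR). The receptor-cutting proteases Adam10 and Adam17 and the processing cofactor Ncstn overlapped between groups, with log2 fold changes of 0.12, 0.15 and -0.07. Of 19 tested genes of the Notch transcription complex, 2 were lower at that p, the acetyltransferase gene Kat2a at a log2 fold change of -0.68 and Zmiz2, the paralog of Zmiz1, at -0.41. Rbpj, the DNA-binding subunit, was at 169, 197 and 183 CPM in IgG and at 205, 228 and 204 CPM in AntiNRR, which did not overlap (log2 fold change 0.22, edgeR adjusted p = 0.969). Zmiz1 was at 227, 214 and 207 CPM in IgG and at 252, 235 and 98.8 CPM in AntiNRR. AntiNRR 3 was the lowest of the 6 and the other AntiNRR libraries the highest. Its log2 fold change was -0.14, and 0.17 without AntiNRR 3.

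The targets followed with larger but more variable differences. Dtx1, a ubiquitin ligase gene long used as a readout of Notch1 activity, stood at 28.02, 25.9 and 24.5 CPM in IgG and at 0.941, 0.0631 and 8.65 CPM in AntiNRR (chromosome 5, 120680202 to 120711927, minus strand). The IgG libraries lay close together, while the AntiNRR libraries spread over more than an order of magnitude, all below them. Its log2 fold change was -3.01 with a standard error of 1.29 (edgeR unadjusted p = 0.0591, adjusted p = 0.919). Il2ra, the interleukin 2 receptor alpha chain (chromosome 2, 11642807 to 11693193, plus strand), stood at 2604, 2086 and 1872 CPM in IgG and at 429, 273 and 1039 CPM in AntiNRR. The groups did not overlap, and the log2 fold change was -1.91 with a standard error of 0.531 (edgeR adjusted p = 0.77). Ptcra (chromosome 17, 46755663 to 46763712, minus strand) stood at 32.4, 42.2 and 25.8 CPM in IgG and at 2.24, 1.14 and 15.4 CPM in AntiNRR, again without overlap (log2 fold change -2.41, standard error 0.883, edgeR adjusted p = 0.848). In Dtx1, Il2ra, Ptcra and Notch3 alike, AntiNRR 2 was the lowest and AntiNRR 3 the highest of the treated libraries. AntiNRR 2 also held the most Cd34, Flt3 and Mpo of the 6 libraries.

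Without AntiNRR 3, edgeR called 4 genes lower and 1 higher. The lower genes were Il2ra (log2 fold change -2.64, adjusted p = 0.000324), Ptcra (-4.31, adjusted p = 0.00489), Dtx1 (-5.72, adjusted p = 0.0187) and Aldh1b1, a mitochondrial aldehyde dehydrogenase gene (-1.62, adjusted p = 0.0389). The higher gene was Il4ra (1.44, adjusted p = 0.0389). Leaving out that library decided the call for Il2ra, Ptcra and Dtx1: over all 15 alternatives the adjusted p reached 1 for Il2ra, Ptcra and Dtx1, and it was under 0.05 in 1. AntiNRR 3 had the largest total count of the 6 libraries and the lowest weight, 0.563, when libraries were weighted by their agreement with their group.

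**Figure D2:**
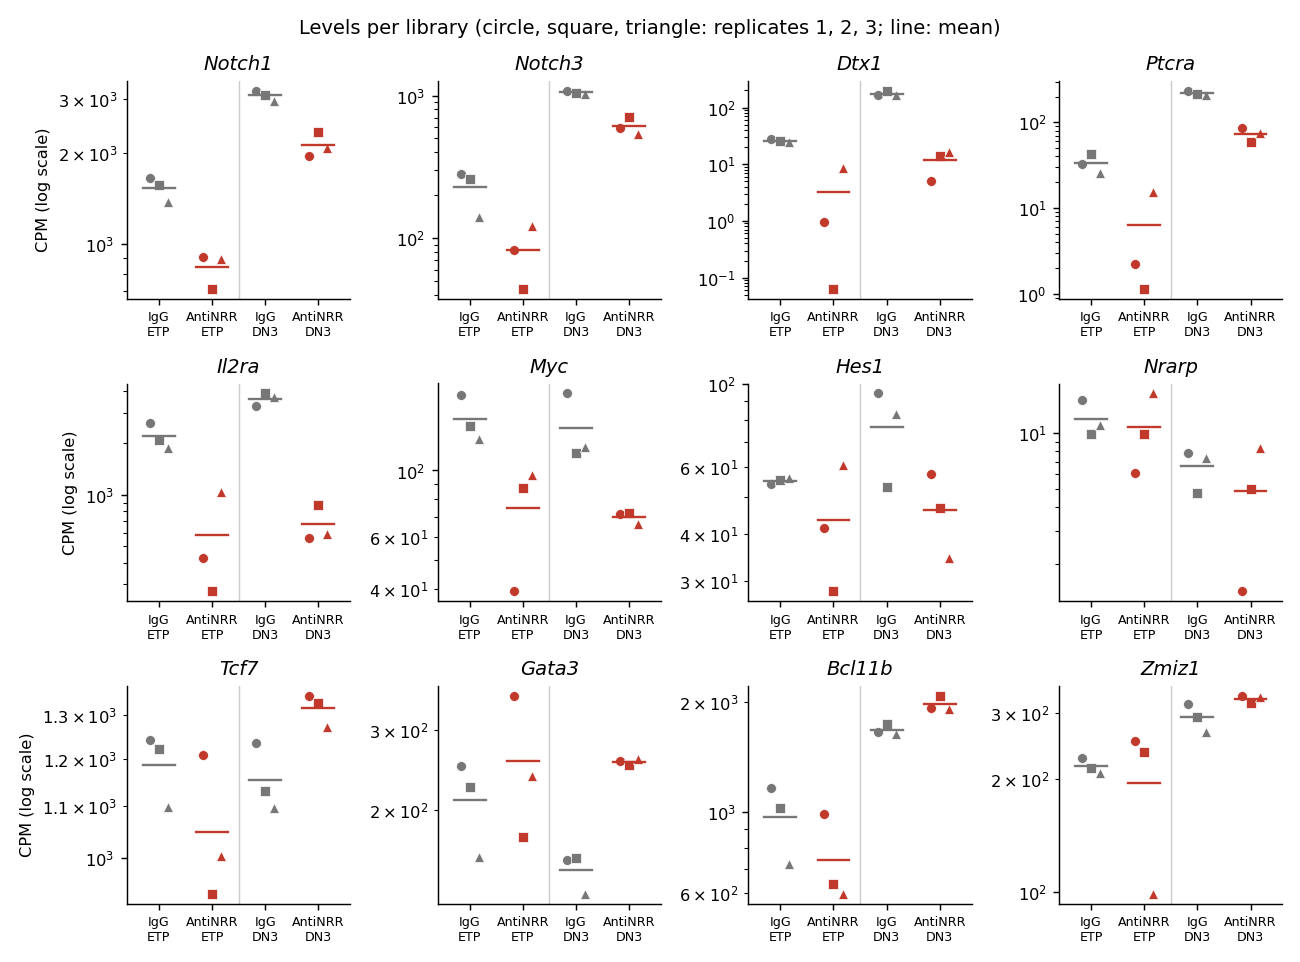
CPM per library (y axis, log scale) of 12 genes in the 4 antibody groups (x axis), with replicates 1, 2 and 3 as circle, square and triangle and the group mean as a line. ETP and DN3 were scaled separately. Notch1, Notch3, Dtx1, Ptcra, Il2ra and Myc are lower in each AntiNRR library of both stages than in each IgG library of that stage, while Hes1, Nrarp, Tcf7, Gata3, Bcl11b and Zmiz1 overlap in ETP.

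Not every target was lower. Hes1, a repressor that is a direct Notch target in many tissues, stood at 54.2, 55.6 and 56.2 CPM in IgG and at 41.3, 28.1 and 60.8 CPM in AntiNRR, so AntiNRR 3 lay above the controls (log2 fold change -0.35, edgeR adjusted p = 0.972). Nrarp, a feedback inhibitor of the Notch complex, overlapped between groups at means of 11.9 ± 2.7 and 10.7 ± 5.2 CPM (SD, n = 3 each). Of 24 listed Notch target genes 20 were tested, and 15 of these had a log2 fold change below 0 (75%, against 48.8% of all genes). At an unadjusted p under 0.05, 7 were lower and 1, Lfng, was higher (2.86% and 2.61% of all genes), and 8 were lower without overlap (40% of the tested targets, against 5.94% of all genes). The list's median log2 fold change was -0.37. Ccnd3, a cyclin of the G1 phase that Notch and pre-T-cell receptor signals sustain, was among the 8, at 147, 133 and 137 CPM in IgG and 111, 117 and 79.2 CPM in AntiNRR (log2 fold change -0.44). Hey1, Hey2, Gzmb and Hes7 were too low to be tested. Hey1 had 36 counts over the IgG libraries and 0 over the AntiNRR libraries.

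To show the start regions of genes that were lower and higher in AntiNRR, RefSeq promoters (GRCm38.p6, 250 bases before to 50 after the start) were read for the named genes, and 28 of 35 had an entry. Both strands were searched for TGGGAA, the core that Rbpj binds, and for CACGTG, the E-box that Myc and Max bind. TGGGAA was present in 25.6% of 32851 promoters in the table, and CACGTG in 7.2%. Counted per gene, over any of its starts, the shares were 28.3% and 8.1% of 27025 genes. Counted in the same way, 2 of 10 genes always named held TGGGAA, as did 1 of 10 genes with the lowest p among higher genes and 0 of 9 among lower genes. For CACGTG the counts were 1 of 10, 1 of 10 and 2 of 9. The promoters of 4 genes are shown, for the receptor, a target with TGGGAA matches, a ribosome assembly gene with an E-box match and the gene with the lowest p, with matches in capitals, on the strand of the gene and 5′ to 3′.
Ptcra (chr17:46763663-46763962, minus strand): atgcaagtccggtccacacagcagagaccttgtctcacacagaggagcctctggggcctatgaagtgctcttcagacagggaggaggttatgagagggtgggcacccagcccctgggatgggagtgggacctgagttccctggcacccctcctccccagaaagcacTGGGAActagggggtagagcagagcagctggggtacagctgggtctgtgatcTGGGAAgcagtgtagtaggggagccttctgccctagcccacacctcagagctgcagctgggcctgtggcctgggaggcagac
Notch1 (chr2:26503773-26504072, minus strand): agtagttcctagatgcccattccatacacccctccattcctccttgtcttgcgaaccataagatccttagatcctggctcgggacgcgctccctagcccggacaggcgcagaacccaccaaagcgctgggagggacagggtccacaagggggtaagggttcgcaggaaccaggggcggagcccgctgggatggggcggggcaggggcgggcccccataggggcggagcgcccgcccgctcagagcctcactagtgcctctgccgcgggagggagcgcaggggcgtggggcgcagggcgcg
Mdn1 (chr4:32656869-32657168, plus strand): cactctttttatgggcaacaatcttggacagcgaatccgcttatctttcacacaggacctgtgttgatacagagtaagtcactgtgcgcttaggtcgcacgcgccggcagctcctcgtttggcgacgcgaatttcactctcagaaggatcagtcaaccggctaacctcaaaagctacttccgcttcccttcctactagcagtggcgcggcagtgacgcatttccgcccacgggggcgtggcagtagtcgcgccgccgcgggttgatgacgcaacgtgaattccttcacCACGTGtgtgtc
Cpa3 (chr3:20242132-20242431, minus strand): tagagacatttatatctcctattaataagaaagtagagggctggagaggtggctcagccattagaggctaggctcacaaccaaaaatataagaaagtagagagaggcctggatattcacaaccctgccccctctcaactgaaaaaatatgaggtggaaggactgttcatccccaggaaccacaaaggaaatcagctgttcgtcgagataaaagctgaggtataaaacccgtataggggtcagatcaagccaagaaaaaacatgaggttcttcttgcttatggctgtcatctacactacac
Ptcra had TGGGAA letters at positions -84 and -32 from its start, and Mdn1 had CACGTG at 39. The Notch1 and Cpa3 windows held neither. A match describes letters in this window and not a bound site.

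Myc, the transcription factor that drives growth and ribosome production and is itself a Notch1 target, stood at 179, 140.5 and 128 CPM in IgG and at 39.3, 87.6 and 96.9 CPM in AntiNRR (chromosome 15, 61985391 to 61990374, plus strand). The groups did not overlap, and AntiNRR 1 was the lowest. The log2 fold change was -0.999 with a standard error of 0.284 (edgeR unadjusted p = 0.00402, adjusted p = 0.675). Mycn overlapped at a log2 fold change of -0.33. Mxd4, which competes with Myc for Max, was at 65.6, 47.0 and 51.0 CPM in IgG and at 107, 64.0 and 84.9 CPM in AntiNRR. AntiNRR 2 lay just under IgG 1, so the groups overlapped (log2 fold change 0.65, edgeR unadjusted p = 0.0134 and adjusted p = 0.77).

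Myc target genes had mostly small negative fold changes. Of 58 tested, 54 had a log2 fold change below 0 (93.1%, against 48.8% of all genes). At an unadjusted p under 0.05, 16 were lower and 1 higher (2.86% and 2.61% of all genes). Without overlap, 21 were lower (36.2%, against 5.94% of all genes). The median log2 fold change was -0.40. Rrp12, needed to assemble and export ribosomal subunits, stood at 80.3, 83.3 and 72.4 CPM in IgG and at 29.9, 40.8 and 41.0 CPM in AntiNRR, a 2.11-fold lower mean level (log2 fold change -1.08, standard error 0.221). Nolc1, a nucleolar chaperone of small RNA-protein particles, stood at 113, 99.7 and 160.5 CPM in IgG and at 39.9, 81.8 and 49.9 CPM in AntiNRR (log2 fold change -1.12, standard error 0.263). Both were called by DESeq2 and not by edgeR. Ncl, the nucleolar protein nucleolin, stood at 721, 731 and 857 CPM in IgG and at 436.5, 578 and 520 CPM in AntiNRR. Ddx21, Nop56, Dkc1 and Fbl, which process or modify ribosomal RNA, had log2 fold changes of -0.72, -0.60, -0.66 and -0.54, all without overlap. Tfrc, the transferrin receptor that brings iron into the cell, was the exception with the lowest p: it stood at 189, 177 and 182 CPM in IgG and at 283, 255 and 267 CPM in AntiNRR (log2 fold change 0.55, edgeR adjusted p = 0.605).

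Mdn1, a giant ATPase that releases assembly factors from the large ribosomal subunit and was not in the Myc target list, was also among the lower genes, at 323, 356 and 323 CPM in IgG and 217, 226 and 178 CPM in AntiNRR (log2 fold change -0.69, standard error 0.163). A list of cytosolic heat shock chaperones, added after values were seen, held 24 tested genes, of which 7 were lower and 1 higher at an unadjusted p under 0.05 (2.86% of all genes were lower and 2.61% higher at that p), with a median log2 fold change of -0.22. Hsph1, a nucleotide exchange factor of Hsp70, stood at 156, 102 and 171 CPM in IgG and at 73.9, 72.9 and 53.5 CPM in AntiNRR (log2 fold change -1.10). Hspa8, the constitutive Hsp70, stood at 4198, 3996 and 5292 CPM in IgG and at 3195, 3240 and 3367 CPM in AntiNRR (log2 fold change -0.46). The Hsp90 cofactors Fkbp4 and Stip1 had log2 fold changes of -0.75 and -0.76, both lower without overlap. Dnajb1, an Hsp40 co-chaperone, was the gene that was higher, at a log2 fold change of 0.43.

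Cell cycle genes had medians a little below 0 and hardly any separation of the groups, but most members lay below 0. The log2 fold change was below 0 in 77.8% of DNA replication genes and 80% of mitosis genes, against 48.8% of all genes. Of 36 tested DNA replication genes, 0 reached an unadjusted p of 0.05 and 1, Gins4, was lower without overlap (log2 fold change -0.45), with a median of -0.13. Of 30 tested mitosis genes, 0 reached it and 0 separated the groups, with a median of -0.21. Over all genes, 2.86% were lower and 2.61% higher at that p, and 5.94% and 5.86% were so without overlap. The summed level of the mitosis genes ranged from 1380 to 3140 CPM over the IgG libraries and from 1000 to 2620 CPM over the AntiNRR libraries, which overlapped.

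**Figure D3:**
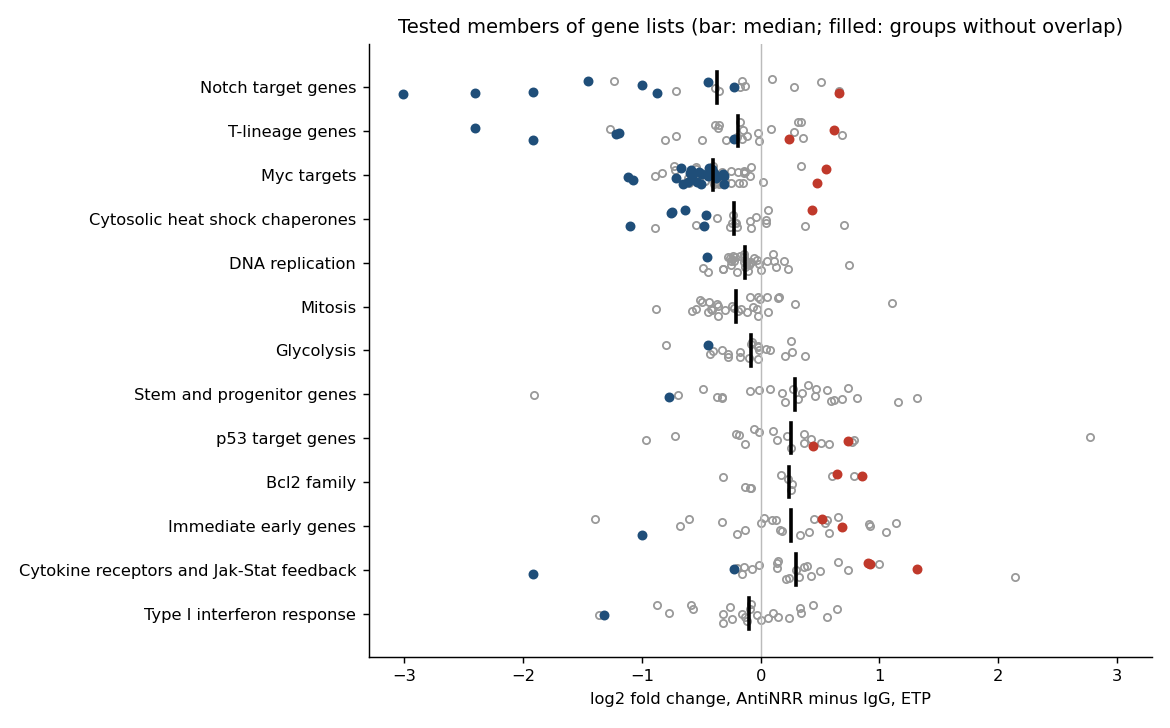
Log2 fold change in ETP (AntiNRR minus IgG, x axis) of each tested member of 13 gene lists (rows), with the list median as a bar. Filled points are members whose AntiNRR libraries all lay above (red) or below (blue) all IgG libraries, and open points overlap. Among these 13 of the 30 lists, the medians of Myc targets (-0.40) and Notch targets (-0.37) lie lowest. That of cytokine receptors and Jak-Stat feedback genes (0.30) lies highest. Of lists not shown, mast-cell and basophil markers (0.62) and natural killer and innate lymphoid markers (0.52) had higher medians. Mature T-cell markers, also not shown, had a median of -0.36.

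T-lineage genes included lower, higher and overlapping members. Cd3g stood at 938, 1003 and 758 CPM in IgG and at 424, 194 and 560.5 CPM in AntiNRR, and the groups did not overlap (log2 fold change -1.20, edgeR unadjusted p = 0.00502, adjusted p = 0.7). Rag1 stood at 823, 762 and 444 CPM in IgG and at 349, 148 and 377 CPM in AntiNRR, also without overlap (log2 fold change -1.22). Cd3e, Cd3d and Rag2 had log2 fold changes of -0.71, -1.27 and -0.80 with overlapping groups. IgG 3, which held more Cd34, Flt3 and Mpo than the other IgG libraries, was the lowest IgG library for each of these 5 genes, and AntiNRR 2 was the lowest of all. The transcription factors that set up the T-cell programme differed less. Tcf7 was at 1187 ± 78 CPM in IgG and 1050 ± 140 in AntiNRR, Gata3 at 210 ± 47 and 256 ± 93, and Bcl11b at 971 ± 229 and 741.5 ± 217 (SD, n = 3 each), all with overlap. Their log2 fold changes were -0.18, 0.28 and -0.39, and the edgeR adjusted p was 0.973, 0.974 and 0.952. Tox, a nuclear factor of T-cell and innate lymphoid development, was higher, at 93.2, 94.4 and 97.1 CPM in IgG and 168, 164 and 106 CPM in AntiNRR (log2 fold change 0.62). Of 28 tested T-lineage genes, 6 were lower and 1 higher at an unadjusted p under 0.05, against 2.86% and 2.61% of all genes, with a median of -0.19.

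On the higher side, Il4ra (chromosome 7, 125552120 to 125579474, plus strand) stood at 69.6, 45.6 and 68.6 CPM in IgG and at 154.5, 178 and 126 CPM in AntiNRR. The lowest treated library was well above the highest control, and the level was 2.49-fold higher (log2 fold change 1.32, standard error 0.209, edgeR adjusted p = 0.0816). Over the 15 alternatives its adjusted p ran from 5.44e-05 (DESeq2) to 0.525, under 0.05 in 4. Of 25 tested genes of cytokine receptors and Jak-Stat feedback, 5 were higher and 1, Il2ra, was lower at an unadjusted p under 0.05, against 2.61% and 2.86% of all genes, with a median of 0.30. Cish, a feedback inhibitor that Stat5 induces, stood at 19.0, 11.6 and 10.3 CPM in IgG and at 27.8, 19.8 and 29.1 CPM in AntiNRR (log2 fold change 0.90). Pim2, a survival kinase under the same control, stood at 14.7, 19.9 and 11.1 CPM in IgG and at 21.2, 32.4 and 33.0 CPM in AntiNRR (log2 fold change 0.92). Neither gene passed correction. Il7r, the interleukin 7 receptor alpha chain, was lower without overlap but by little, at 172 to 204.5 CPM in IgG and 162 to 168 CPM in AntiNRR (log2 fold change -0.23, edgeR adjusted p = 0.968).

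Cpa3 (chromosome 3, 20215620 to 20242181, minus strand) stood at 271, 257.5 and 368 CPM in IgG and at 581, 657 and 767 CPM in AntiNRR. The groups were well apart, with means of 299 ± 60 and 668 ± 93 CPM (SD, n = 3 each), and the level was 2.24-fold higher (log2 fold change 1.16, standard error 0.181). Its adjusted p was 0.0816 in edgeR and ran from 1.5e-06 (DESeq2) to 0.764 over the 15 alternatives, under 0.05 in 5. Of 15 markers of mast cells and basophils 4 were tested, of which 3 had a log2 fold change above 0, with a median of 0.62. The 11 not tested reached at most 1.46 CPM in an IgG library and 6.50 CPM in an AntiNRR library, and Tpsb2, Tpsab1, Fcer1a and Ms4a2 among them were counted at 0 in all 6 libraries. Gata2 and Mitf, transcription factors of mast cells and of other lineages, overlapped between groups at up to 5.27 CPM. Kit, the stem cell factor receptor that the sort gate selects and that mast cells share, was at 188, 238.5 and 403 CPM in IgG and at 250.7, 457.5 and 324 CPM in AntiNRR, with overlap. The summed level of the marker list, in which Cpa3 and Kit weigh most, was 461 to 778 CPM in IgG and 838 to 1130 CPM in AntiNRR, and the part of mast cells in the Cpa3 difference was not tested.

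The other genes with the lowest p on the higher side had varied roles. Map3k8, a kinase that activates the Erk pathway, stood at 10.3, 7.21 and 8.12 CPM in IgG and at 35.02, 21.1 and 26.2 CPM in AntiNRR, a 3.21-fold higher level (log2 fold change 1.68, standard error 0.369). Abca1, a cholesterol exporter, stood at 20.5, 29.9 and 39.7 CPM in IgG and at 76.6, 92.7 and 49.9 CPM in AntiNRR. Gpr171, a G-protein-coupled receptor gene, stood at 85.0, 99.5 and 125 CPM in IgG and at 163, 238 and 179 CPM in AntiNRR. Ptgir, the prostacyclin receptor, was at a log2 fold change of 1.62. These 4 genes were called by DESeq2, together with Cpa3, Il4ra and Il4i1, which was counted at 0 in each IgG library and at 1.32 to 6.22 CPM in AntiNRR. Cd96, an adhesion receptor of T and natural killer cells, stood at 136, 106 and 81.2 CPM in IgG and at 216, 163 and 205.5 CPM in AntiNRR (log2 fold change 0.85). Mdfic, Rcbtb2, Calcrl, Ankrd44 and Chst15 completed the 12 genes that the naming rule took, with log2 fold changes between 0.63 and 0.86. The edgeR adjusted p of the 12 ran from 0.0816 to 0.528.

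On the lower side the lowest p belonged to Capn5, a calcium-dependent protease gene, at 139, 124.5 and 155 CPM in IgG and 78.2, 63.1 and 58.3 CPM in AntiNRR (log2 fold change -1.07, standard error 0.187, edgeR adjusted p = 0.135). Rapgef2, an activator of Rap GTPases, followed at 143, 145 and 188 CPM in IgG and 82.6, 75.9 and 79.4 CPM in AntiNRR (log2 fold change -1.001, standard error 0.177, edgeR adjusted p = 0.135). In both genes the treated libraries lay close together. Plekha7, a protein of cell junctions, stood at 170, 155 and 158 CPM in IgG and at 85.7, 58.1 and 96.7 CPM in AntiNRR. Pld4, a single-stranded nucleic acid exonuclease of the phospholipase D family, stood at 33.5, 42.3 and 27.3 CPM in IgG and at 9.84, 11.8 and 13.2 CPM in AntiNRR (log2 fold change -1.56). Hirip3, Aldh1b1 and Tmem131 were lower without overlap, at log2 fold changes of -1.86, -1.18 and -0.82. Sap25, a subunit of Sin3 co-repressor complexes in which low counts limit precision, was at 4.83, 10.0 and 3.01 CPM in IgG and was counted at 0 in each AntiNRR library.

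The same antibody in DN3 gave more calls, and those genes were then read in ETP, which shares no library with the DN3 comparison. Whether ETP and DN3 libraries came from the same mice is not given, so the stages may not be independent samples. In DN3, 335 of 12658 genes rose (2.65%) and 375 fell (2.96%) at an edgeR adjusted p under 0.05. Of the genes that rose in DN3, 332 were tested in ETP. There 268 (80.7%) had a log2 fold change above 0, against 51.2% of the 12056 genes tested in both stages. The groups did not overlap for 64 of the 268 (19.3% of the 332, against 5.89% of the 12056). Of those that fell in DN3, 370 were tested in ETP, and 323 (87.3%, against 48.8%) had a log2 fold change below 0. Without overlap, 112 were lower (30.3%, against 6.06%). The median log2 fold change of the first set was 0.58 in DN3 and 0.25 in ETP, and that of the second was -0.67 and -0.31. Across the 702 genes the fold changes of the stages had a Pearson r of 0.56 and a Spearman rho of 0.72, and across all 12056 genes 0.17 and 0.23. These are descriptions across genes, which are not independent replicates. Leaving out any 1 of the 6 ETP libraries gave shares of 66.3% (without AntiNRR 1) to 85% (without AntiNRR 3) for the first set and of 79.3% (without IgG 3) to 91.4% (without AntiNRR 3) for the second.

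Set against the mean of the IgG ETP libraries, the median log2 ratio of the genes that fell in DN3 was -0.05, -0.11 and 0.18 in IgG 1 to 3 and -0.51, -0.18 and -0.25 in AntiNRR 1 to 3, which did not overlap. For the genes that rose in DN3 it was 0.13, 0.09 and -0.18 in IgG and 0.43, 0.11 and 0.19 in AntiNRR. AntiNRR 2 lay between IgG 1 and IgG 2 there, so the groups overlapped. AntiNRR 1 was the farthest from the controls in both sets. That order differs from the one in Dtx1, Il2ra and Ptcra, where AntiNRR 2 was the lowest.

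**Figure D4:**
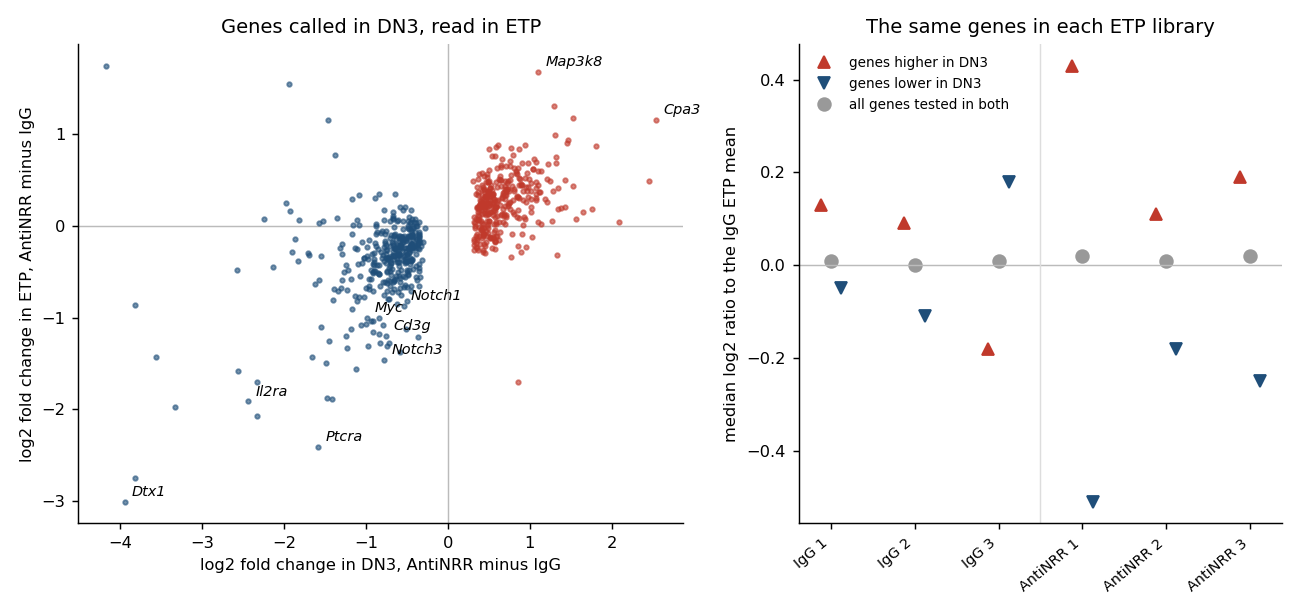
Left, log2 fold change in DN3 (x axis) and in ETP (y axis) of the genes that rose (red) or fell (blue) in DN3, with 5 of 702 beyond the axes. Right, the median log2 ratio of the same genes, and of all 12056 genes tested in both stages (grey), to the mean of the IgG ETP libraries, per ETP library. Of the red genes 80.7% lie above 0 in ETP and of the blue genes 87.3% lie below it, and the blue triangles of the AntiNRR libraries lie under those of all IgG libraries.

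Named genes are set side by side. Notch1 fell in DN3 from 3092 ± 115 to 2126 ± 195 CPM (SD, n = 3 each), with a log2 fold change of -0.54 against -0.87 in ETP. Dtx1 fell from 176 ± 17 to 11.7 ± 5.8 CPM, with -3.94 against -3.01 in ETP. Il2ra fell from 3633 ± 320 to 672 ± 171 CPM, with -2.43 against -1.91, and Ptcra from 219 ± 12 to 72.9 ± 13.5 CPM, with -1.59 against -2.41. Myc fell in DN3 at a log2 fold change of -0.99, against -0.999 in ETP. Hes1 fell in DN3, at -0.73 (edgeR adjusted p = 0.0431), although the groups overlapped there too, and it was called in 7 of 12 DN3 alternatives with an adjusted p of up to 0.246. Gata3 rose in DN3, at 0.79, and overlapped in ETP. Of the 58 Myc targets, 33 fell and 0 rose in DN3, against 2.96% and 2.65% of all genes tested there. Their median in DN3 was -0.60, against -0.01 over the 12056 genes tested in both stages. Cpa3 rose in DN3 from 22.1 ± 7.6 to 128 ± 27 CPM, a log2 fold change of 2.54 against 1.16 in ETP.

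The difference between the stages was tested as an interaction over 13603 genes, with the ETP and DN3 libraries taken as independent. EdgeR called 0 genes (0% in either direction), with 357 higher in ETP (2.62%) and 386 lower (2.84%) at an unadjusted p under 0.05. DESeq2 called 2 higher (0.0147%), Crispld2 and Snord95, and 3 lower (0.0221%), Cpa3, Sap25 and Vmn2r97. Its log2 differences were 12.98 for Crispld2, 13.02 for Snord95, -8.03 for Sap25 and -21.96 for Vmn2r97. Differences of that size have no bound where a group holds few or no counts. The lowest edgeR adjusted p was 0.887. Cpa3 differed by -1.39 on the log2 scale (standard error 0.308), with an adjusted p from 0.0196 (DESeq2) to 1 over 18 alternatives. Stat4, a transcription factor of cytokine signalling, had a log2 fold change of -0.09 in ETP and 0.90 in DN3, a difference of -1.003 (standard error 0.228). Tes, a focal adhesion gene, had 0.44 and 1.53, a difference of -1.10 (standard error 0.265). For Il2ra the difference was 0.50 (standard error 0.597), for Ptcra -0.83 (0.991), for Dtx1 0.91 (1.29) and for Notch1 -0.34 (0.180), with edgeR adjusted p of 0.992, 0.992, 1 and 0.901. The standard errors are large, and a p that misses the threshold does not show that the stages respond alike.

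The antibody was also set against Zmiz1 deletion in ETP, with levels scaled over those 12 ETP libraries. In the deletion comparison alone (DeltaMxCre minus MxCre), the Zmiz1 transcript had a log2 fold change of -1.41 and was not called (edgeR adjusted p = 0.256). The arms come from different mice, agents and times, so the contrast is between whole experiments. Of 13408 genes, edgeR called 3 with a higher antibody effect (0.0224%) and 8 with a lower one (0.0597%), and DESeq2 called 32 (0.239%) and 48 (0.358%). Without MxCre 1 the edgeR counts were 6 and 20, without MxCre 3 they were 7 and 14, and without AntiNRR 2 they were 1 and 4. The gene model Gm20605 was not tested in the deletion comparison alone. For each of the other 10 genes the 2 fitted effects had opposite signs. The contrast itself favours such genes, so the signs add no support. EdgeR called none of them for the antibody alone. For the deletion alone it called Cdh1, Bst1 and Il2ra (edgeR adjusted p = 0.0362 for each). Its adjusted p there was 0.166 for Mdga1, 0.179 for Capn5, 0.391 for Cpa3 and 0.421 for Pld4. For Notch1 it was 0.649, and for Il4ra and Rapgef2 0.847. Il2ra was at 262 to 986 CPM in AntiNRR against 1793 to 2498 in IgG, and at 4421 to 4857 CPM in DeltaMxCre against 1603 to 2216 in MxCre. The antibody minus deletion difference was -3.20 on the log2 scale (standard error 0.515, edgeR adjusted p = 0.0396). The Il2ra call was kept in 6 of 17 alternatives: it was lost without a filter and in 10 of the 12 fits that left out 1 library, all but those without AntiNRR 2 or AntiNRR 3. Notch1 itself was at 683 to 859 CPM in AntiNRR against 1325 to 1585 in IgG, and at 1942 to 2011 CPM in DeltaMxCre against 905 to 1676 in MxCre (difference -1.57, standard error 0.280, edgeR adjusted p = 0.0177), and its call was kept in 10 of 17 alternatives. Bst1, a surface ADP-ribosyl cyclase, was at 4.38 to 19.8 CPM in AntiNRR against 20.2 to 30.4 in IgG, and at 63.0 to 86.4 CPM in DeltaMxCre against 6.92 to 17.5 in MxCre (difference -3.90).

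Capn5 and Pld4 had the same order, lower in AntiNRR than in IgG and higher in DeltaMxCre than in MxCre, at differences of -2.41 and -3.36, called in 17 and 10 of 17 alternatives. Cpa3 and Il4ra had the reverse. Cpa3 was at 549 to 728 CPM in AntiNRR against 247 to 352 in IgG, and at 119 to 235 CPM in DeltaMxCre against 326 to 505 in MxCre (difference 2.25, standard error 0.338, edgeR adjusted p = 0.00757). Mdga1, a cell-surface adhesion protein, was at 47.0 to 67.9 CPM in AntiNRR against 12.2 to 32.0 in IgG, and at 7.11 to 15.0 CPM in DeltaMxCre against 28.7 to 101 in MxCre (difference 3.80, called in 13 of 17 alternatives). Cdh1, the adhesion molecule E-cadherin, overlapped between AntiNRR and IgG and rose after deletion, to 141 to 202 CPM against 30.6 to 62.2 in MxCre (edgeR adjusted p = 0.0362 in the deletion comparison). MxCre 1 was the highest control for Capn5, Notch1 and Mdga1 and the lowest for Pld4, Il2ra and Bst1. Ptcra, Dtx1 and Notch3 had antibody minus deletion differences of -5.99, -6.20 and -2.54, with edgeR adjusted p of 0.107, 0.338 and 0.107. For the deletion alone their log2 fold changes were 3.56, 3.18 and 1.06. EdgeR called Ptcra (adjusted p = 0.0493) and Dtx1 (adjusted p = 0.0185) higher there, and not Notch3 (adjusted p = 0.403).

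**Figure D5:**
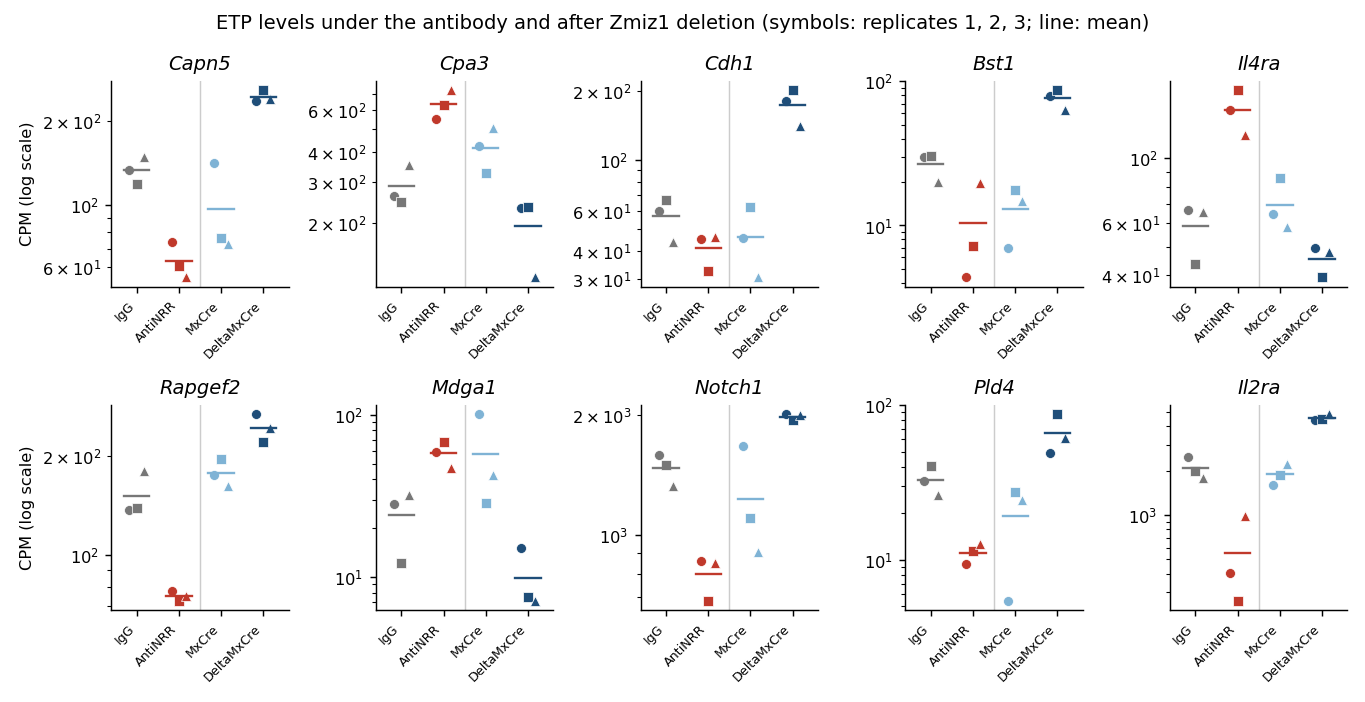
CPM per ETP library (y axis, log scale) of 10 of the 11 genes called in the antibody minus deletion contrast, all but the gene model Gm20605, in 4 groups (x axis), with replicates as symbols and the mean as a line. Il2ra lies at 262 to 986 CPM in AntiNRR and at 4421 to 4857 CPM in DeltaMxCre, while Cpa3 is highest in AntiNRR.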

How the data were processed

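The analysis began from the table of estimated counts per gene that the authors deposited for the antibody and pI-pC libraries, with 23284 genes and 24 libraries. Per the submitters' processing notes, the build was mm10 and the tools named, without role or order, were Cuffdiff 2.1.1, Cufflinks, Bowtie2 2.1.0.0, TopHat2 2.0.9 and FastQC 0.10.0. The annotation and use of strand are not given in the sources used here, so overlapping genes and near-identical copies are uncertain. Between 0.65% and 0.86% of the values in the antibody libraries were over 0.01 from a whole number, and all were rounded. The tables of tamoxifen-treated mice were made with other kits, per the labels' protocols, and were not used here.

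Low genes were removed by filterByExpr (at least 10 counts, 15 in total) in R 4.3.3. After TMM scaling, the groups compared were tested with the robust quasi-likelihood F test of edgeR 4.0.16. A gene was called where its Benjamini-Hochberg adjusted p was below 0.05. Fold changes used a prior count of 0.125. Interactions were fitted over 4 groups. Scripts were tested on simulated data. DESeq2 1.42.0 and limma 3.58.1 (voom) were alternatives, with other scalings and filters and each library left out. Named genes were 12 fixed genes, the 12 lowest p in each direction at a mean of at least 5 CPM without overlap, leaving out gene models, the 2 lowest p per direction in each list, and the 6 lowest p of each interaction. Other genes were chosen after their values were seen. Members and the 30 lists were chosen with earlier results of these data known. Positions are from GENCODE M21 (GRCm38), matched by symbol.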

Additional observations from a re-analysis of the deposited data

Results flagged for a closer look

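The effect of the antibody and the effect of Zmiz1 deletion differed in ETP, by edgeR's test of the difference itself at an adjusted p under 0.05, for 11 genes. The antibody effect was the higher one for Cpa3, by 2.25 on the log2 scale, for Il4ra, by 1.92, and for Mdga1, by 3.80. It was the lower one for Capn5, with a difference of -2.41, for Cdh1, with -2.39, for Bst1, with -3.90, for Rapgef2, with -1.47, for Notch1, with -1.57, for Pld4, with -3.36, and for Il2ra, with -3.20. For the gene model Gm20605 the difference of -10.3 rests on counts of 0 in all 3 MxCre libraries, and its size has no bound. Of 17 alternatives, Capn5, Cpa3, Cdh1 and Gm20605 were called under 17, Bst1 under 15, Il4ra, Rapgef2 and Mdga1 under 13, Notch1 and Pld4 under 10 and Il2ra under 6.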

How the results depend on the processing

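In ETP the main test called 0 genes, 7 higher and 21 lower with DESeq2, 2 and 6 without a filter (Cpa3 and Il4ra higher, Capn5, Hsph1, Notch1, Plekha7, Rapgef2 and Sap25 lower), 5 and 12 with the spread shared by the 4 antibody groups, and 2 and 1 with voom library weights, an alternative chosen after seeing the data. Leaving out 1 library gave 0 to 1 higher and 0 to 4 lower (1 and 1 without IgG 1, 1 and 0 without IgG 3, 1 and 4 without AntiNRR 3). Single genes reversed without 1 library only: Nrarp (-0.585 to 0.128, with 0.128 without AntiNRR 1 and 0.040 without IgG 1), Gata3 (-0.034 without AntiNRR 1 to 0.494), Zmiz1 (-0.369 to 0.172 without AntiNRR 3) and, in DN3, Nrarp (-1.062 to 0.001 without AntiNRR 1). The DN3 calls ranged from 161 to 302 higher and 188 to 375 lower without 1 library (lowest without IgG 3 and IgG 2). The share of DN3-higher genes above 0 in ETP ranged from 66.3% to 85% and that of DN3-lower genes below 0 from 79.3% to 91.4%. The stage interaction gave 2 higher and 3 lower with DESeq2, and 0 to 1 and 0 to 2 without 1 library. The deletion interaction gave 32 and 48 with DESeq2, and 1 to 7 and 4 to 20 without 1 library, with 7 and 14 without MxCre 3, 6 and 20 without MxCre 1 and 1 and 4 without AntiNRR 2. The causes were not tested. The labels do not say whether replicates of the same number belong together. Correlations of same-numbered deviations were 0.13, -0.13 and -0.04 in ETP, and so few values cannot exclude a pairing. With replicate numbers as a block, the ETP fit called 0 genes and the stage interaction 2 lower genes. Depth limits genes with few counts, such as Dtx1 in AntiNRR and Sap25.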

Other observations

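Genes of survival and stress pathways had medians on either side of 0, and none passed correction in edgeR. The counts of list members below are to be read against all genes tested, of which 2.61% were higher and 2.86% were lower where the unadjusted p was below 0.05. Of 12 tested Bcl2 family genes, 2 were higher at that p. Bcl2l1, which encodes the survival protein Bcl-xL, stood at 34.97, 41.4 and 30.9 CPM in IgG and at 55.8, 54.8 and 83.1 CPM in AntiNRR (log2 fold change 0.85). Bcl2 stood at 401, 398 and 177 CPM in IgG and at 551.5, 455 and 514 CPM in AntiNRR (log2 fold change 0.64), with IgG 3 far under the other controls. Of 21 tested p53 target genes, 2 were higher at an unadjusted p under 0.05, Polk and Sesn1, and the median was 0.25. Of 23 tested genes of the integrated stress and unfolded protein responses, 3 were lower and 1 higher. Slc7a5, a transporter of large amino acids, stood at 93.3, 79.3 and 91.8 CPM in IgG and at 37.0, 67.5 and 52.8 CPM in AntiNRR (log2 fold change -0.75), and it fell in DN3 too (-0.78, edgeR adjusted p = 0.0024). Mthfd2, of mitochondrial folate metabolism, had a log2 fold change of -1.16. Of 22 tested glycolysis genes 2 were lower, among them Gapdh (log2 fold change -0.44), and of 26 tested type I interferon response genes 0 reached an unadjusted p of 0.05.

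Immediate early genes had a median of 0.25, with 3 higher and 1, Myc, lower of 26 tested at an unadjusted p under 0.05. Klf6, a zinc finger factor, stood at 54.5, 59.0 and 51.6 CPM in IgG and at 107, 72.5 and 85.6 CPM in AntiNRR (log2 fold change 0.69). Ikzf2, the Ikaros family factor Helios, was the gene of 17 tested Runx, E protein and Id factor genes, a list that includes Ikaros factors, that was higher at that p, at 349, 362 and 279 CPM in IgG and 550, 410 and 573 CPM in AntiNRR (log2 fold change 0.63). It rose in DN3, at 0.81 (edgeR adjusted p = 2.66e-05). Of 19 tested homing and adhesion receptors, Cxcr4, the receptor for Cxcl12, was higher (log2 fold change 0.45), while Ccr9 overlapped, at 177, 183 and 33.1 CPM in IgG and 479, 171 and 240 CPM in AntiNRR. Stem and progenitor genes had a median of 0.29 over 26 tested, with Cd24a higher and Erg lower at an unadjusted p under 0.05.

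Markers of other cell types mostly overlapped, and many were low, but the highest member of several lists was not. Mean levels in IgG and AntiNRR were 683 and 570 CPM for Arpp21 (double-positive list) and 212 and 233 CPM for Pecam1 (stromal list). They were 138 and 196 CPM for Mpo (myeloid list) and 88.3 and 84.4 CPM for Tcf4 (dendritic-cell list). The highest B-cell marker, Cd79b, was at 18.5 and 17.3 CPM, and the highest erythroid and platelet marker, Car2, at 15.8 and 26.4 CPM. Of 13 tested myeloid markers and 14 tested dendritic-cell markers, 0 reached an unadjusted p of 0.05, and Elane, Cd14, S100a8, S100a9, Batf3 and Clec9a were counted at 0 in all 6 libraries. The natural killer and innate lymphoid list had 11 of 13 tested members above 0 and 15.4% below it, against 48.8% of all genes. Its median was 0.52, with 0 at that p, and its member Gata3 is also a T-lineage gene. For B cells 4 of 16 markers were tested, and Pax5 and Ebf1 were counted at 0. Of 18 thymic stromal markers 7 were tested, and Foxn1, Krt5 and Dll4 were counted at 0. Of 13 tested double-positive thymocyte markers, Cd69, an activation antigen, was higher at an unadjusted p under 0.05 with overlap (log2 fold change 1.14), and of 8 tested gamma-delta T-cell markers 0 were. Of 6 tested erythroid and platelet markers, Itga2b was lower (log2 fold change -1.89), and the globin genes Hba-a1 and Hba-a2 were counted at 0. Among 11 tested mature T-cell markers, Ctla4, an inhibitory receptor, was lower without overlap (38.5, 48.3 and 16.6 CPM in IgG and 15.7, 3.98 and 15.3 CPM in AntiNRR).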
